A study of Mus musculus with 8 samples.

Results

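The primary cilium is a single antenna-like organelle that most cells, including neural progenitors and neurons, extend from a basal body. The 38 genes described here encode the machinery that builds and guards it: intraflagellar transport (IFT) proteins, the kinesin-2 motor, the BBSome with its assembly and recruitment factors, the ciliary GTPase Arl13b, and transition zone proteins. They were taken by name from known genes of this machinery, by a rule that uses no measured value but was written with earlier results of these data known, and all 38 were found among the 16397 genes of the count table. RNA was taken from hippocampi of C57BL/6J mouse embryos at embryonic day (E) 15.5. The 4 intrauterine growth restriction (IUGR) samples came from dams given the thromboxane A2 analog U-46619 by micro-osmotic pump from E12.5, which raises maternal blood pressure, and the 4 sham samples from dams whose pump held vehicle alone. Both sexes were used, and no genetic change was made in either group. Samples are named here by group and replicate, 1 to 4, and values are always listed in that order. The IUGR titles all share 1 prefix, while sham replicates 1 and 3 carry one prefix and sham replicates 2 and 4 another. The sources do not say what these prefixes mean or whether the samples came from separate litters, so a litter effect and the treatment cannot be told apart, and p-values measure only the spread between these samples.

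Cargo moves along the cilium on trains of IFT particles. IFT-B particles travel outward with kinesin-2, and IFT-A particles take part in the return with dynein-2 and in the entry of membrane proteins. The BBSome, a coat-like complex recruited to membranes by the GTPase Arl6, carries signalling receptors out of the cilium, and mutations in its genes cause Bardet-Biedl syndrome. The transition zone at the base of the cilium holds the MKS proteins (Mks1, the B9 domain and tectonic proteins, Cc2d2a and several transmembrane proteins) and Rpgrip1l, and acts as a gate, and mutations in its genes cause Meckel and Joubert syndromes. In the developing hippocampus the primary cilium is known for its part in Sonic hedgehog signalling in progenitors.

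Many cilium genes carry an X-box, the recognition sequence of RFX transcription factors, close to their start. RefSeq promoters of GRCm38.p6, 250 bases before to 50 bases after the start, were given for 34 of the 38 genes (all but Ift80, Ift81, Ift122 and Tmem67). The letters GTNNCC, 0 to 3 further bases, then NGNAAC were searched on both strands, and 13 of the 34 promoters (38.2%) held them, against 5.94% of 27025 genes with a promoter and 7.20% of the 10306 tested genes with one. Other lists held them to differing degrees, with 42.9% of 28 motile cilia genes and 26.7% of 15 other BBSome and transition zone genes. Shares were lower in 16 other IFT and motor genes (18.8%) and 13 basal body genes (15.4%). They were held by 2 of 16 ciliary membrane and signalling genes, 1 of 6 RFX factors and 0 of 2 hedgehog targets. A stricter form, GTTNCC, 2 further bases, then GGNAAC, which is a case of the first, was held by Bbs7, Mks1 and Tctn1 (8.82%), against 0.529% of all promoters. Several forms of the motif were tried and these kept after their matches had been seen. A match is a run of letters and not a measured binding site. The 30-base windows below are read along each gene's own strand, with the matching letters in capitals. They show the 3 strict matches, then matches in Ift57 and Tmem231, which are described with their values further on, and in Tctn3 and B9d2, whose group means lay close together.
Bbs7, chr3:36613489-36613518, minus strand: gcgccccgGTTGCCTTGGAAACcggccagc
Mks1, chr11:87853183-87853212, plus strand: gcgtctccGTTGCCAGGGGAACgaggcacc
Tctn1, chr5:122264411-122264440, minus strand: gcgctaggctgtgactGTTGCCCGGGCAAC
Ift57, chr16:49699199-49699228, plus strand: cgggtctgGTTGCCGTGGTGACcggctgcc
Tmem231, chr8:111933781-111933810, minus strand: cgccgtcgGTTGCCGTGGAGACtcggcgct
Tctn3, chr19:40612351-40612380, minus strand: ctcccagcgGTTGCCAGGTAACgggaacca
B9d2, chr7:25680788-25680817, plus strand: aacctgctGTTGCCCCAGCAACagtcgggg
The capitals began 121 bases before the RefSeq start in Bbs7, 24 before it in Mks1, 87 before it in Ift57 and 140 before it in Tctn3. They began after the start, within the transcribed part, by 36 bases in Tctn1, 11 in Tmem231 and 16 in B9d2. In Ift57 and Tmem231 the match shown was on the opposite strand. Only the first match along each promoter is shown, and Ift57 held 3 over both strands. Bbs7, Mks1, Tctn1 and Tctn3 had 2 each, as their capitals fit the motif on both strands.

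All 38 genes were detected in every sample. Levels between genes are given for the sham group as CPM (counts scaled to 1e+06 per sample) per kilobase of merged GENCODE M21 exons, a length that joins the exons of all isoforms and so understates genes with long alternative exons. The highest level was that of Ift74, an IFT-B core subunit that pairs with Ift81, at 47.2 ± 8.35 CPM per kb (SD, n = 4). Kif3a, a kinesin-2 motor subunit, followed at 35.7 ± 0.97, Ift20, the IFT-B subunit that also sits at the Golgi, at 29.5 ± 7.06, and Arl6 at 23.4 ± 5.02 CPM per kb. The sample range of Ift20 overlapped those of Kif3a and Arl6, so Ift20 did not differ from either beyond the spread, whereas the lowest Ift74 sample (40.2) lay above the highest Kif3a sample (36.9). The 5 lowest levels were all of transition zone genes. Tctn1, a tectonic, stood at 1.89 ± 0.15 CPM per kb and Mks1 at 3.01 ± 0.20, whereas B9d1, a partner of Mks1 in the same complex, stood at 15.1 ± 3.69. The 7 BBSome subunits were the most even group, from 6.48 ± 0.85 CPM per kb in Bbs7 to 10.5 ± 1.69 in Ttc8. Among the rest, the lowest were Ift80 in IFT-B (7.45 ± 0.44), Ift122 in IFT-A (6.10 ± 0.73) and the chaperonin-like assembly factor Bbs10 (5.19 ± 1.36 CPM per kb). In Tctn1, 19.0% of exon bases overlap Hvcn1 on the opposite strand, and in Tmem216, Tmem67, Bbs4 and Bbs12 between 1.31% and 5.15% overlap an opposite-strand gene of the table. The strand setting of the counting is not given in the sources used here, so reads of such partners may be included.

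**Figure D1:**
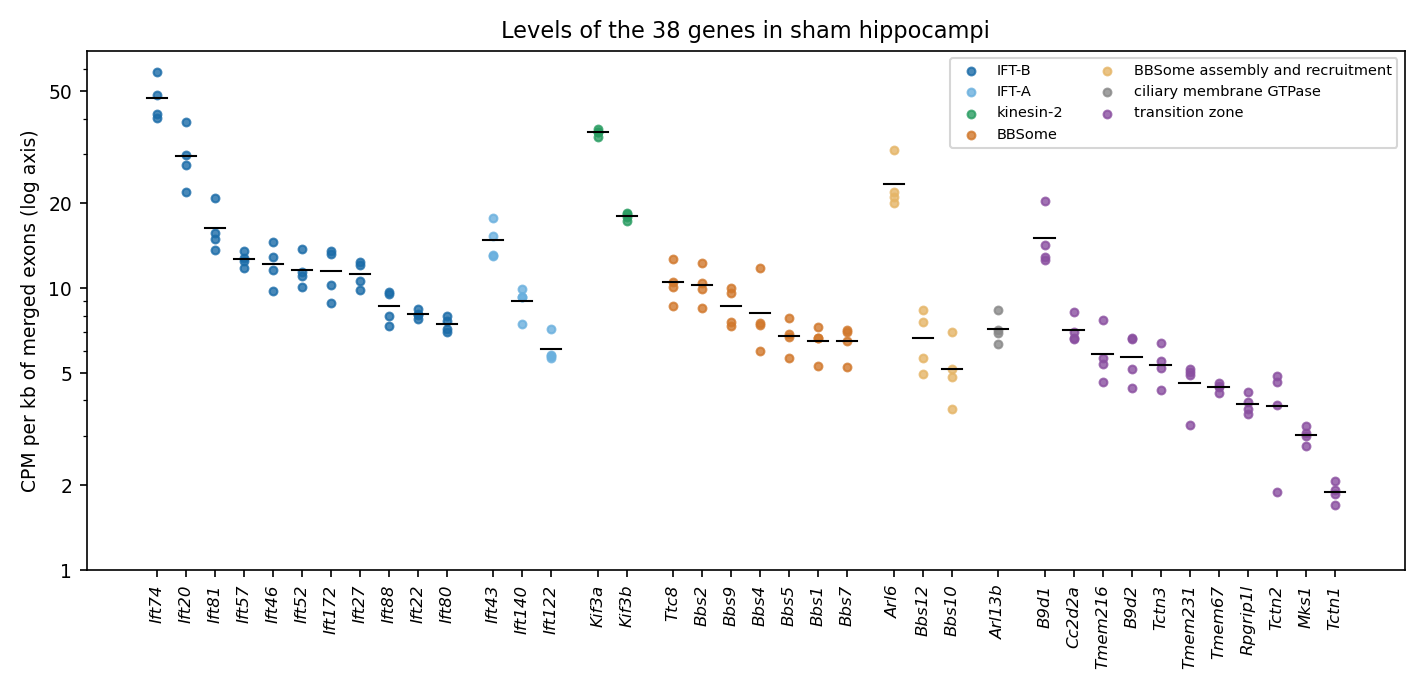
Level of the 38 genes in the sham group, in CPM per kb of merged exons on a log axis, ordered within roles; points are the 4 sham samples and bars their means. Ift74 and Kif3a stand at the top and Tctn1, at 1.89 CPM per kb, at the bottom.

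The comparison asked whether the machinery of the primary cilium differs between IUGR and sham hippocampi. No gene of the set passed the test, and the differences were small and mostly in one direction. Of the 37 genes tested (Tctn2 is not annotated as protein-coding and was fitted apart), 31 had a log2 fold change below 0, that is, a lower fitted level in IUGR, against 55.5% of all 13707 genes tested. Over the alternative settings that count lay between 24 (without IUGR replicate 3) and 33 (without sham replicate 1), and it was 25 with sham replicates 1 and 3 alone. The median log2 fold change of the 37 genes was −0.17, against −0.02 over all tested genes, with a range from −0.51 to 0.17. That median was −0.08 without sham replicate 3, −0.11 without IUGR replicate 2 and −0.22 without IUGR replicate 1. None was called by edgeR's quasi-likelihood test with an adjusted p no higher than 0.05 plus a 2-fold difference or more, where 1.46% of all tested genes were called, and none reached an adjusted p of 0.05 at any size of difference (background 1.55%). At an unadjusted p under 0.05, 6 genes were lower in IUGR (Cc2d2a, Ift43, Tmem231, Rpgrip1l, Ift57 and Bbs7), which is 6 of 37 beside a background of 6.62%, and 0 were higher (background 4.46%). DESeq2's Wald test gave Cc2d2a an adjusted p of 0.0484 with a difference under 2-fold, and called no gene of the set. The 4 samples of each group did not overlap in 3 genes, Ift57, Ift43 and Cc2d2a, all lower in IUGR (background 5.06%), and no gene lay wholly higher (background 2.08%). In bulk tissue, fewer cells of a type and less RNA per cell cannot be told apart.

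For the tested genes, the spread between samples bounded how large a difference could have been. The 95% interval of the log2 fold change lay between −1 and 1 for all 37, against 76.8% of all tested genes. A 2-fold difference in either direction thus lay outside each of those 37 intervals. Tctn2, fitted apart with genes of all biotypes, had the largest difference of the set (log2 fold change −0.73). In that fit 37 of the 38 intervals lay between −1 and 1, so the bound does not cover Tctn2. The median standard error (SE) was 0.16. The count of 6 rested on single libraries: it was 1 without sham replicate 3 and 10 without IUGR replicate 1, and with the sham samples restricted to one title prefix it was 3 (replicates 1 and 3) or 0 (replicates 2 and 4). Of the 37 genes, 21 kept the sign of their log2 fold change in all 17 alternative settings, 19 of them below 0.

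**Figure D2:**
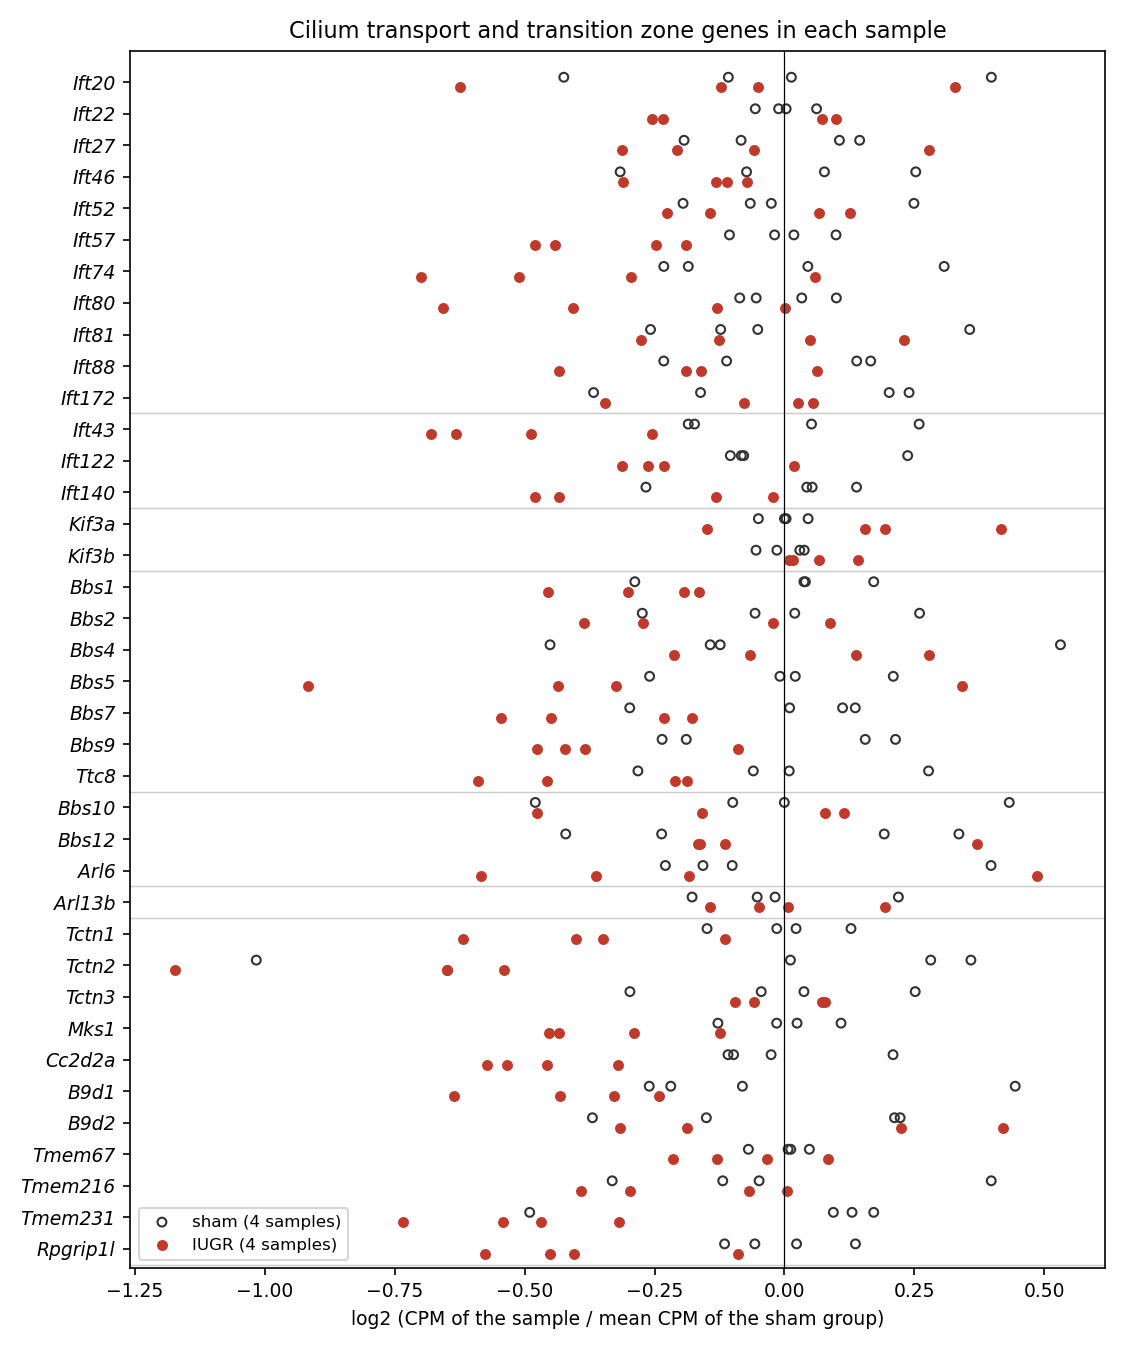
Level of each of the 38 genes in each sample, as the log2 ratio of its CPM to the mean of the sham group (x axis), with open circles for the 4 sham samples, filled circles for the 4 IUGR samples and gray lines between roles. The filled circles lie mostly left of 0, and they lie wholly left of the open ones in Ift57, Ift43 and Cc2d2a.

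**Figure D3:**
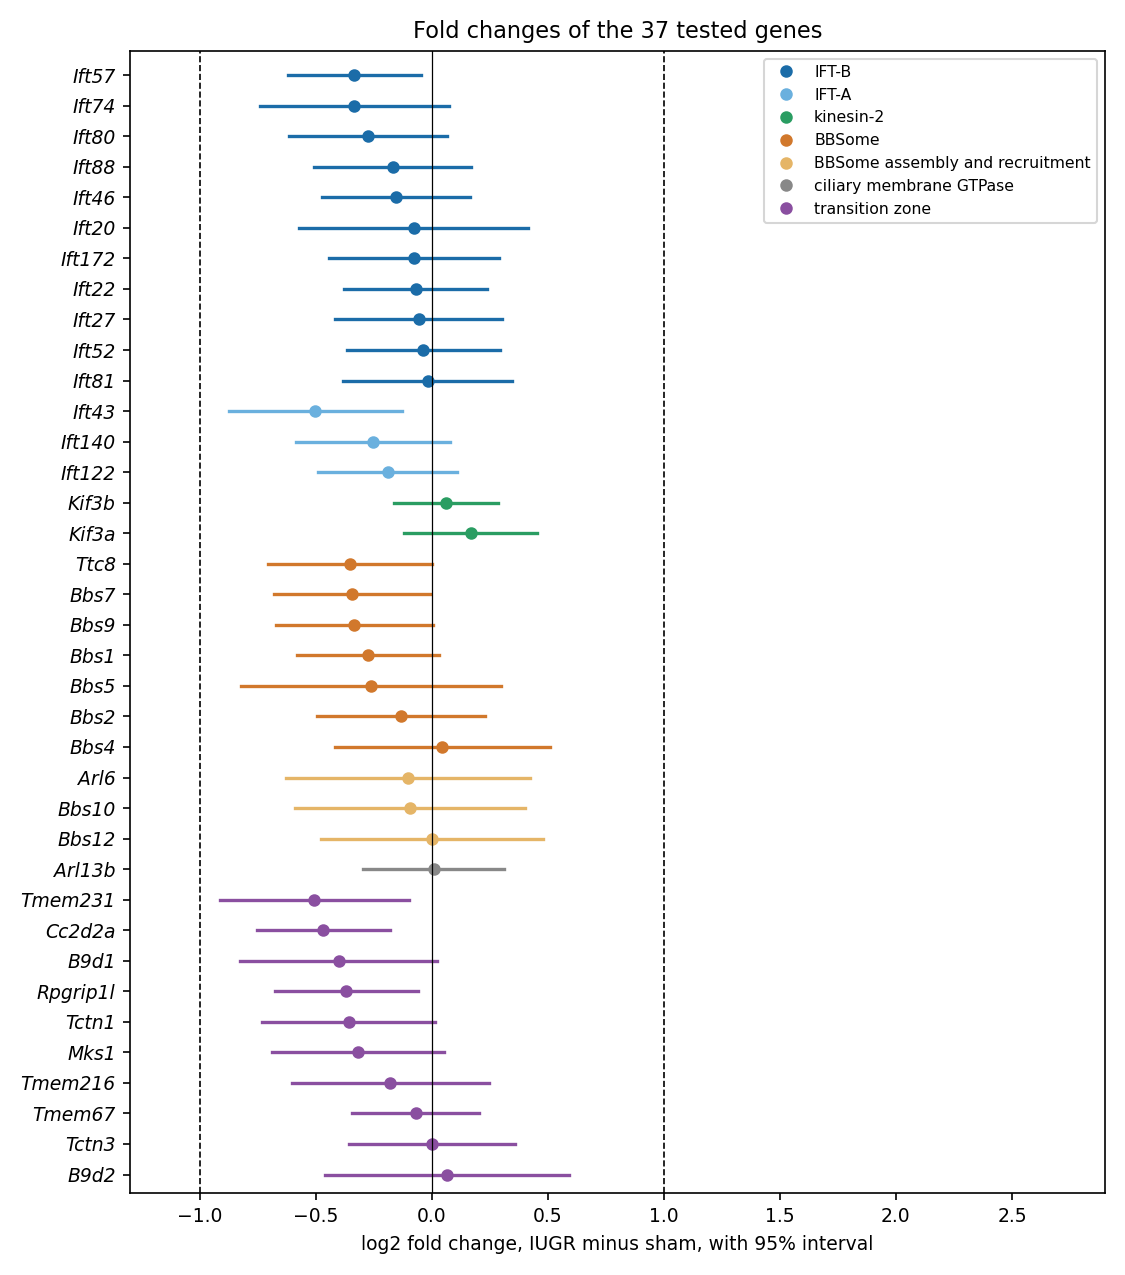
Log2 fold change of IUGR over sham for the 37 tested genes with 95% intervals, grouped by role; dashed lines mark a 2-fold difference either way. Every interval lies inside the dashed lines, and most estimates lie left of 0.

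The transition zone genes had the lowest median of the roles. Of 10 tested, 8 had a log2 fold change below 0, with a median of −0.34. Cc2d2a (chr5:43662346-43740972, GRCm38), a scaffold of the MKS complex, stood at 35.4, 32.6, 38.9 and 33.5 CPM in the IUGR samples and at 45.4, 47.7, 56.1 and 45.0 CPM in the sham samples. Every IUGR sample lay below every sham sample. The means were 35.1 ± 2.77 and 48.5 ± 5.18 CPM (SD, n = 4 each), which gave a log2 fold change of −0.47 (SE 0.13, edgeR adjusted p = 0.123). Tmem231 (chr8:111912011-111933881), a transmembrane MKS protein, stood at 17, 19.8, 17.8 and 14.8 CPM in IUGR and at 27, 27.8, 26.3 and 17.6 CPM in sham. In Tmem231, sham replicate 4 fell among the IUGR values, and the other sham samples lay above all of them. Its log2 fold change was −0.51 (SE 0.18, edgeR adjusted p = 0.279), and −0.64 without sham replicate 4 (edgeR adjusted p = 0.108). Rpgrip1l (chr8:91217030-91313262), which anchors the complex at the axoneme, stood at 53.7, 38.3, 41.7 and 43.1 CPM in IUGR and at 54.9, 58.0, 62.8 and 52.7 CPM in sham. IUGR replicate 1 alone reached the sham range there. The log2 fold change of Rpgrip1l was −0.37 (SE 0.14, edgeR adjusted p = 0.307).

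Among the other transition zone genes, B9d1 averaged 18.2 ± 2.09 CPM in IUGR (20.3, 19.1, 15.4 and 17.8) and 24.0 ± 5.87 CPM in sham (22.7, 20.03, 20.6 and 32.6), where sham replicate 4 was the highest. Its log2 fold change was −0.40 (SE 0.19, edgeR adjusted p = 0.492), and −0.22 without sham replicate 4. The tectonic Tctn1 averaged 12.2 ± 1.76 CPM in IUGR (11.9, 12.3, 14.5 and 10.2) and 15.7 ± 1.23 CPM in sham (15.5, 17.1, 15.9 and 14.1), a log2 fold change of −0.36 (SE 0.17, edgeR adjusted p = 0.479). Only IUGR replicate 3 of Tctn1 reached into the sham range. Tctn2, a second tectonic, stood at 14.1, 21.8, 20.2 and 20.2 CPM in IUGR and at 40.7, 38.6, 32.0 and 15.7 CPM in sham, so that sham replicate 4 again lay among the IUGR values. Fitted with genes of all biotypes (14956 genes), its log2 fold change was −0.73 (SE 0.28, edgeR adjusted p = 0.333). Mks1 averaged 9.76 ± 1.05 CPM in IUGR and 12.2 ± 0.82 in sham, a log2 fold change of −0.32 (SE 0.17, edgeR adjusted p = 0.588) that kept its sign in all 17 alternative settings (−0.36 to −0.20). In other transition zone genes the group means lay closer: Tctn3 averaged 17.6 ± 1.08 CPM in IUGR and 17.5 ± 2.73 in sham, and B9d2 averaged 8.70 ± 2.08 and 8.31 ± 1.62 CPM. Summed over all 11 genes, the transition zone level was between 228 and 241 CPM in the IUGR samples and between 269 and 305 CPM in the sham samples, with no overlap and a ratio of the means of 0.791. That ratio was between 0.769 and 0.833 without each sample in turn, with either sham prefix alone and under 2 other normalizations. The sums did not overlap under those 2 normalizations either. Leaving samples out of groups that do not overlap can hardly make them overlap, so those settings do not bear on the separation. These alternatives were chosen after seeing the data, and the summed level is given as a description, with no test.

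Of the IFT-B genes, all 11 had a log2 fold change below 0, but most by little (median −0.08), and 6 of them turned sign in at least 1 of the 17 alternative settings (Ift81 in 9, Ift52 in 4, Ift27 in 3, Ift20 and Ift172 in 2 each and Ift22 in 1). Ift57 (chr16:49699233-49765126), a peripheral IFT-B subunit, stood at 31.9, 30.6, 26.8 and 26.0 CPM in IUGR and at 33.8, 35.9, 38.9 and 36.8 CPM in sham. The groups of Ift57 did not overlap, but the nearest samples, 31.9 and 33.8 CPM, lay close. Its log2 fold change was −0.33 (SE 0.13, edgeR adjusted p = 0.328). The abundant Ift74 had the same estimate, −0.33 (SE 0.18, edgeR adjusted p = 0.629), from samples that overlapped widely: 130, 88.0, 77.1 and 102 CPM in IUGR and 107, 129, 110 and 155 CPM in sham. Its partner Ift81 averaged 94.0 ± 14.3 CPM in IUGR and 95.2 ± 18.5 CPM in sham. The intervals of the log2 fold change of Ift74 (−0.74 to 0.07) and Ift81 (−0.38 to 0.35) overlapped. Ift80 (84.6, 58.7, 69.8 and 92.7 CPM in IUGR, 89.2, 99.2, 94.8 and 87.2 in sham) had a log2 fold change of −0.28 (SE 0.15, edgeR adjusted p = 0.632), and −0.13 without IUGR replicate 2. The estimate of Ift74 was −0.20 without IUGR replicate 3, −0.22 without sham replicate 4, −0.10 with sham replicates 1 and 3 alone and −0.47 with sham replicates 2 and 4 alone. Ift88, needed for cilium assembly in many tissues, averaged 35.5 ± 4.97 and 40.0 ± 5.30 CPM, and Ift20, Ift22, Ift27, Ift46, Ift52 and Ift172 had overlapping groups as well.

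The 3 IFT-A genes all had a log2 fold change below 0 (median −0.25). Ift43 (chr12:86082541-86162459), a small IFT-A subunit, stood at 17.4, 15.2, 20.5 and 15.8 CPM in IUGR and at 21.5, 25.3, 29.2 and 21.7 CPM in sham, and the groups did not overlap. The means were 17.2 ± 2.35 and 24.4 ± 3.66 CPM (SD, n = 4 each), which gave a log2 fold change of −0.50 (SE 0.17, edgeR adjusted p = 0.224). Ift122 stood at 53.6, 52.5, 63.8 and 50.7 CPM in IUGR and at 59.6, 58.6, 74.2 and 59.5 CPM in sham, with overlap from IUGR replicate 3 alone. Its log2 fold change was −0.19 (SE 0.13, edgeR adjusted p = 0.818), and −0.0578 without sham replicate 3.

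Both kinesin-2 motor subunits had a log2 fold change above 0, as did Bbs4, Arl13b, Tctn3 and B9d2. Only the 2 kinesin-2 genes kept that sign in all 17 alternative settings. Bbs4 and Arl13b turned in 3 of them, and Tctn3 and B9d2 in 2. Kif3a (chr11:53567379-53601967) stood at 147, 143, 116 and 171 CPM in IUGR and at 124, 128, 132 and 128 CPM in sham, a log2 fold change of 0.17 (SE 0.13, interval −0.12 to 0.46, edgeR adjusted p = 0.883), which was 0.0744 without IUGR replicate 4 and 0.30 without IUGR replicate 3. The IUGR samples enclosed the narrow sham range. Kif3b stood at 106, 112, 102 and 103 CPM in IUGR and at 97.9, 104, 101 and 104 CPM in sham, with a log2 fold change of 0.06 (SE 0.10, interval −0.17 to 0.28), and 0.11 without IUGR replicate 3. Kinesin-2 also moves cargo outside cilia, in axons for example.

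Of the 7 BBSome subunits, 6 had a log2 fold change below 0 (median −0.27), and the exception was Bbs4, which averaged 51.0 ± 7.64 (IUGR) and 49.3 ± 15.2 CPM (sham). Bbs7 (chr3:36573142-36613477) stood at 29.7, 25.6, 23.9 and 30.8 CPM in IUGR and at 28.4, 35.1, 37.7 and 38.4 CPM in sham, where sham replicate 1 lay among the IUGR values. Its log2 fold change was −0.34 (SE 0.15, interval −0.68 to −0.01, edgeR adjusted p = 0.432). Ttc8, also known as Bbs8, stood at 34.8, 26.4, 28.9 and 34.3 CPM in IUGR and at 32.6, 38.1, 39.9 and 48.1 CPM in sham. Sham replicate 1 was the lowest sham sample in Ttc8 too, and the log2 fold change was −0.35 (SE 0.16, edgeR adjusted p = 0.452). Bbs1 averaged 41.2 ± 3.65 and 49.8 ± 6.44 CPM, and Bbs9 42.9 ± 5.42 and 54.1 ± 8.62 CPM, in IUGR and sham.

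The factors that assemble and recruit the BBSome and the GTPase Arl13b had estimates near 0. Arl6 stood at 68.9, 43.3, 32.8 and 38.3 CPM in IUGR and at 45.9, 44.1, 42.0 and 64.8 CPM in sham, a log2 fold change of −0.10 (SE 0.24). A single sample stood far above the rest in each group, IUGR replicate 1 and sham replicate 4. Bbs10 stood at 17.1, 11.4, 14.2 and 16.7 CPM in IUGR and at 11.3, 14.8, 15.8 and 21.3 CPM in sham (log2 fold change −0.09, SE 0.22), and Bbs12 averaged 16.2 CPM in both groups. Arl13b, which keeps the lipid and protein makeup of the ciliary membrane, stood at 41.7, 33.1, 36.7 and 35.3 CPM in IUGR and at 32.3, 36.1, 35.2 and 42.5 CPM in sham. Its log2 fold change was 0.01 (SE 0.14, interval −0.30 to 0.31), so the groups lay on top of each other. The signs of Arl6, Bbs10 and Arl13b each turned in 3 of the 17 alternative settings, and that of Bbs12 in 12 (−0.22 to 0.35).

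Sequence and difference were set side by side for the genes with a promoter and a test. The 12 genes with the looser X-box-like motif had a median log2 fold change of −0.30, from −0.51 to 0.07, and the 21 without it had a median of −0.13, from −0.50 to 0.17. The count below 0 went the other way, with 9 of the 12 genes with the motif and 18 of the 21 without it. Each set held 3 of the genes at an unadjusted p under 0.05. The difference between the sets was not tested. Of the 6 RFX factors themselves, none was called and 5 had a log2 fold change below 0, with Rfx4 at −0.73 (SE 0.26, edgeR adjusted p = 0.276) and Rfx2 at −0.66 (SE 0.37, edgeR adjusted p = 0.645).

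Further genes of the same machinery, listed by function, were not called either. Of 17 other IFT and motor genes tested, none was called, 4 were lower and 1 higher at an unadjusted p under 0.05, and the median log2 fold change was −0.17. The smallest p values were those of Ttc30b, an IFT-B subunit, with 18.8 ± 4.29 CPM in IUGR and 34.5 ± 6.81 in sham (log2 fold change −0.88, edgeR adjusted p = 0.0701), and of Dync2li1, a dynein-2 subunit, at 20.2 ± 1.13 and 28.6 ± 3.24 CPM (−0.50, edgeR adjusted p = 0.132). The 1 that was higher, Kifap3, is the third subunit of kinesin-2, at 255 ± 31.1 CPM in IUGR and 204 ± 14.7 in sham (0.32, edgeR adjusted p = 0.320). Of 18 other BBSome and transition zone genes, none was called, 5 were lower and 1 higher at an unadjusted p under 0.05, and the median was −0.21. Tmem107, a transmembrane MKS protein, had 10.9 ± 0.67 CPM in IUGR and 17.5 ± 1.80 in sham (−0.69, edgeR adjusted p = 0.0630), followed by the kinase Nek8 (−0.61, edgeR adjusted p = 0.185). The 1 that was higher was Ahi1, a Joubert syndrome protein of the transition zone, with 201 ± 15.3 CPM in IUGR and 158 ± 13.4 in sham and no overlap between the groups (0.35, edgeR adjusted p = 0.212). Among 16 ciliary membrane and signalling genes and 14 basal body genes, none was called and 1 of each list was lower at an unadjusted p under 0.05, with medians of −0.06 and −0.12. These were the somatostatin receptor Sstr3, a protein of neuronal cilia, at 2.14 ± 0.69 and 5.16 ± 3.71 CPM in IUGR and sham (−1.27, edgeR adjusted p = 0.382), where sham replicates 2 and 4 (6.34 and 9.81 CPM) stood above sham replicates 1 and 3 (3.12 and 1.39 CPM), and Cep83, a distal appendage protein, at 88.7 ± 21.6 and 118 ± 1.75 CPM (−0.41, edgeR adjusted p = 0.353). Next in their lists came Tulp3, an adaptor that brings receptors into the cilium (−0.44, edgeR adjusted p = 0.523), and Cep164, another appendage protein (−0.28, edgeR adjusted p = 0.537). Of 4 hedgehog target genes, none was called, and their median was 0.25, with the receptor Ptch1 at 0.26 (SE 0.34).

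Motile cilia, which beat and are carried by ependymal and choroid plexus cells, share IFT with primary cilia but have their own axoneme genes, and those differed far more. All 30 motile cilia genes tested had a log2 fold change below 0 (median −1.83), 26 were lower at an unadjusted p under 0.05, and 10 were called lower. Foxj1, the master regulator of motile cilia, fell from 100.3 ± 16.04 CPM in sham to 19.6 ± 5.56 in IUGR (log2 fold change −2.35, edgeR adjusted p = 0.00655), and the docking factor Ttc25 from 8.92 ± 1.43 to 2.23 ± 0.54 CPM (−1.995, edgeR adjusted p = 0.00998). The count of 10 ranged from 3 to 25 without each sample in turn (3 without sham replicate 2 or sham replicate 3, 25 without IUGR replicate 1) and was 0 with either sham prefix alone. Summed, the motile cilia genes stood between 119 and 349 CPM in IUGR and between 500 and 794 CPM in sham, a ratio of the means of 0.304. The 38 genes together stood at 1710, 1508, 1474 and 1625 CPM in IUGR and at 1656, 1764, 1784 and 1853 CPM in sham, a ratio of 0.895, and IUGR replicate 1 lay above sham replicate 1.

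**Figure D4:**
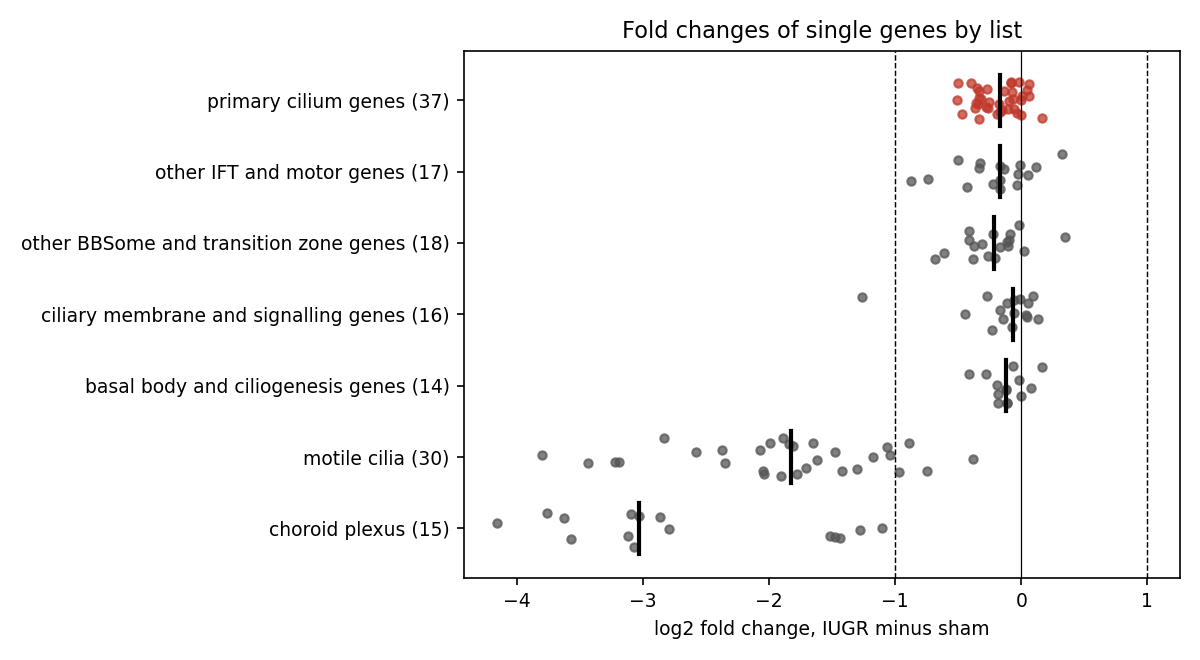
Log2 fold change of IUGR over sham for the 37 tested genes and each tested gene of the other lists; each point is a gene, placed at random heights within its list, bars mark the medians and dashed lines a 2-fold difference. The 37 genes lie between −0.51 and 0.17, and the medians of the motile cilia (−1.83) and choroid plexus (−3.03) lists lie far below them.

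**Figure D5:**
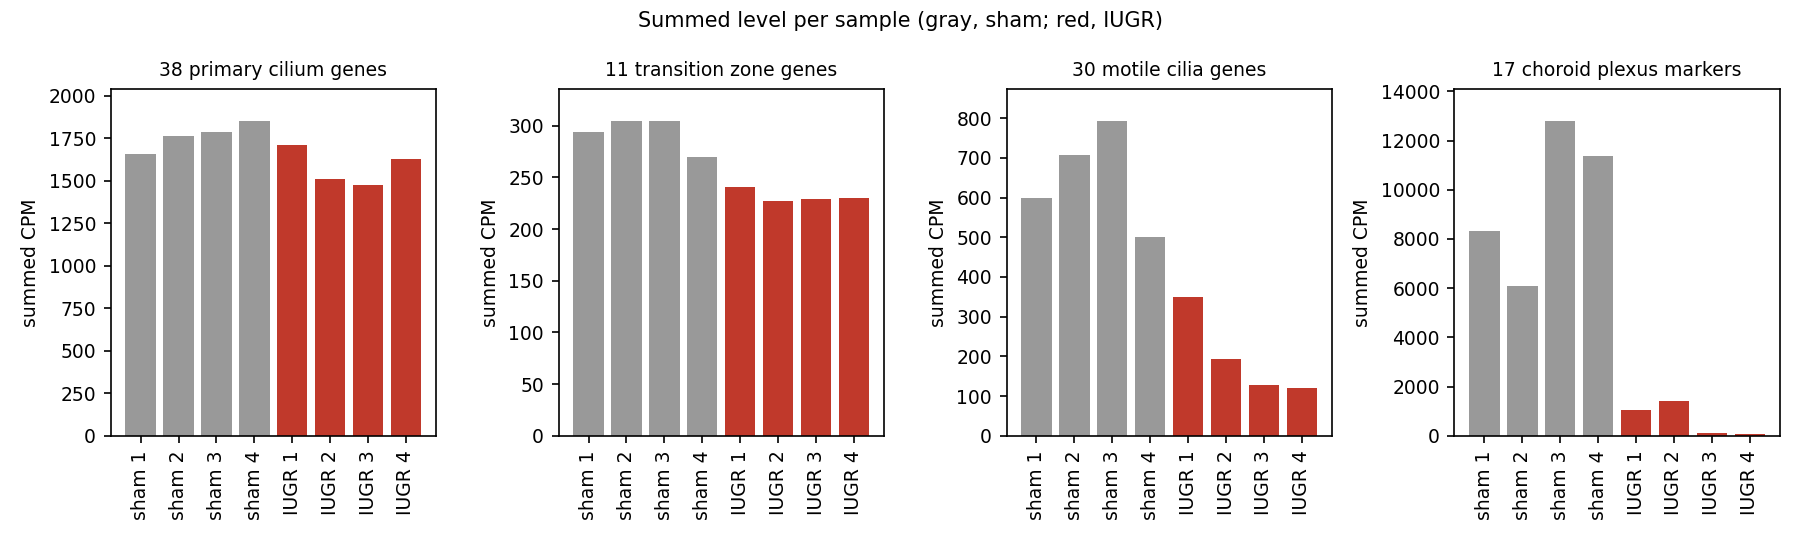
Summed CPM of 4 gene lists, with a bar for each of the 8 samples (gray, sham; red, IUGR; numbers are replicates) and an axis from 0 in each panel. The transition zone, motile cilia and choroid plexus sums of the groups do not overlap, and those of all 38 genes do.

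RNA of cell type markers was compared as well. The choroid plexus markers differed in the same direction as the motile cilia genes, and markers of several other cell types in the opposite direction. The 17 choroid plexus markers summed to between 83.3 and 1402 CPM in IUGR and between 6108 and 12816 CPM in sham; 15 were tested, all had a log2 fold change below 0 (median −3.03) and 4 were called lower. The defining marker Ttr stood between 10.2 and 966 CPM in IUGR and between 4550 and 10851 in sham. The 12 neuronal markers summed to between 5571 and 5925 CPM in IUGR and between 4027 and 4998 in sham, none was called, but all 12 had a log2 fold change above 0 (median 0.32) and 7 were higher at an unadjusted p under 0.05. The 10 radial glia markers summed to between 3473 and 3985 CPM in IUGR and between 3625 and 4195 in sham. The 7 meningeal fibroblast markers were at between 47.7 and 1468 CPM in IUGR and between 175 and 369 in sham, the 6 endothelial markers at 183 to 322 and 175 to 265, the 6 microglial markers at 49.7 to 125 and 53.5 to 68.4, and the 7 erythroid markers at 664 to 2152 and 1064 to 1624 CPM. The log2 fold change was above 0 in 7 of 7 meningeal (median 1.27), 5 of 6 endothelial (0.55), 6 of 6 microglial (0.30) and 7 of 7 erythroid markers (0.41), and none was called. The hippocampal label was met in every sample, with the 8 pallial markers summing to between 923 and 1095 CPM in IUGR and 873 and 1651 in sham. All 8 pallial markers had a log2 fold change below 0 (median −0.37, 2 at an unadjusted p under 0.05, none called). The part of these cell types in the values of the 38 genes was not tested. Total counts ran from 11212632 to 16672463 per sample. Within each group, all 12 pairs of samples differed beyond sampling noise (chi-square per degree of freedom between 29.5 and 78.8), so no pair was taken for a library deposited in duplicate. This does not show that the samples came from separate animals or litters.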

How the data were processed

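Total RNA of 8 hippocampal samples (4 IUGR, 4 sham) was sequenced as single reads after depletion of ribosomal RNA (TruSeq Stranded Total RNA with Ribo-Zero Gold), all in the same lane. The authors aligned reads to GRCm38 (mm10, with Novoalign 2.8 per the submitters' processing notes) and deposited raw read counts per gene. The counting program, annotation release, strand setting and differential expression test are not given in the sources used here. Genes were matched by identifier to GENCODE M21 (16124 of 16397 matched). Protein-coding genes were kept where the count averaged 10 or more but less than 50000, and the resulting 13707 were tested in R 4.3.3 with edgeR 4.0.16 (TMM, quasi-likelihood test, Benjamini-Hochberg adjustment over all of them). Of the choroid plexus markers, Ttr lay above and Prlr below these limits. CPM values use TMM-adjusted library sizes. A call needed an adjusted p no higher than 0.05 plus a log2 difference of 1 or more either way. SE were derived from the F statistic and 95% intervals from edgeR's degrees of freedom. Genes given with every sample's value were those with an unadjusted p under 0.05, those with the smallest p, the largest difference, and the highest or lowest level per kb of each role, and genes whose groups did not overlap. Of the other pathway lists the 2 genes with the smallest p were named, by mean and SD or fold change, and cell type markers are given by counts and summed levels (Kifap3, Ahi1, Tctn2, Tctn3, B9d2, Ift81, Ift88, Ift20, Mks1, Bbs1, Bbs4, Bbs9 and Bbs12 were named besides, and 1 gene that this rule would name is not reported here). The 38 genes and the lists were chosen with earlier results of these data known. Alternatives covered normalization, DESeq2 1.42.0, limma-voom (limma 3.58.1), count filters, biotypes and samples. The scripts were tested on simulated data.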

Additional observations from a re-analysis of the deposited data

Results flagged for a closer look

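In 3 of 76 groups of 4 samples examined (38 genes, each in IUGR and sham), 1 sample stood apart from the other 3 by Dixon's test, of which chance alone gives about 1 in 20. Ift122 was at 74.2 CPM in sham replicate 3, where the other sham samples lay between 58.6 and 59.6 CPM. Bbs12 was at 21.0 CPM in IUGR replicate 1, where the others lay between 14.5 and 15.0 CPM. Tmem231 was at 17.6 CPM in sham replicate 4, where the others lay between 26.3 and 27.8 CPM.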

How the results depend on the processing

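None of the 37 tested genes was called in any of the 17 alternatives, and Tctn2 was not called in the 1 that held it, with all biotypes. The number at an adjusted p of at most 0.05 was 0 by edgeR and limma-voom and 1 by DESeq2's Wald test (Cc2d2a, 0.0484; its edgeR, limma-voom and DESeq2 adjusted p ran from 0.0484 to 0.565 over all alternatives). The number at an unadjusted p under 0.05 and lower in IUGR, 6, ran from 1 to 10 without each sample in turn, and was 3 with sham replicates 1 and 3 alone and 0 with sham replicates 2 and 4 alone. The number higher ran from 0 to 1. The count of intervals between −1 and 1, an alternative chosen after seeing the data like the motile cilia counts and the summed transition zone level, was between 35 and 37. The median log2 fold change ran from −0.22 to −0.08. Signs turned in at least 1 alternative in 16 of the 37 genes, most often in Bbs12 (12 of 17) and Ift81 (9 of 17). Those of Arl13b, Arl6 and Bbs10 are given as examples. Without each sample in turn, Arl13b ran from −0.0599 to 0.0877, Arl6 from −0.37 to 0.0602 and Bbs10 from −0.22 to 0.0849. Arl13b was −0.0505 with sham replicates 2 and 4 alone. With sham replicates 1 and 3 alone, Arl6 was 0.0808 and Bbs10 0.15. The cause was not tested. Over all genes, 200 were called, 425 by DESeq2, 328 by limma-voom, 73 at a mean count of at least 50, 24 to 302 without each sample in turn (24 without sham replicate 3), and 0 or 2 with 1 sham prefix alone. The motile cilia count was 19 by DESeq2 and 5 at a mean count of at least 50. With 4 samples a group and a median SE of 0.16, differences much smaller than the widths of the 95% intervals were not detectable with this spread between samples. No paired analysis was possible because the replicate numbers follow accession order and carry no pairing.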

Other observations

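Sham replicate 4 was the highest of the 4 sham samples in 17 of the 38 genes and the lowest in 14. The 17 were Ift20, Ift22, Ift46, Ift74, Ift81, Kif3b, Bbs4, Bbs5, Bbs7, Bbs9, Ttc8, Bbs10, Bbs12, Arl6, Arl13b, B9d1 and Tmem216, and in 13 of them IUGR replicate 1 was the highest IUGR sample. The 14 were Ift27, Ift52, Ift80, Ift172, Ift140, Bbs1, Tctn1, Tctn2, Tctn3, Mks1, Cc2d2a, B9d2, Tmem231 and Rpgrip1l, and in 1 of them IUGR replicate 1 was the highest IUGR sample and in 6 the lowest. The median length of merged exons was 3608 bases in the 17 genes and 6713 bases in the 14. These counts were made after the values were seen, and are given as a description with no test. The same counts and lengths over all genes were not computed, so the pattern cannot be called particular to these 38 genes.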
